A study of Mus musculus with 4 samples.

Results

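The immunity-related GTPases (IRGs) described here are Irgm1, Irgm2, Igtp, Iigp1, Ifi47, Tgtp1 and Tgtp2. They are 7 of the 17013 genes in the deposited expression values and were taken by symbol. RNA came from mouse bone marrow-derived macrophages, grown from the marrow of wild-type C57BL/6 male mice with M-CSF and seeded on porous culture inserts. They were harvested 24 h after the media described here were added. Artificial necrotic bone fluid (aNBF), a fluid of freeze-thawed bone, was present in every culture. The groups differed in the layer of a freeze-thawed abdominal fat preparation that they received. Con cultures received its middle layer as the fat control medium. Fat cultures received the top layer, a medium high in fat. There was no culture without aNBF or without fat preparation among the 4 libraries, of which 2 were Con and 2 were Fat. No source used here states the age of the mice, or whether the libraries of a medium came from separate mice or separate cultures, so the p-values measure only the spread between these libraries, which may be technical.

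IRGs are GTP-binding proteins that mouse cells make in response to interferons, above all interferon-γ, which acts through its receptor and the kinases Jak1 and Jak2. They form an effector group, which coats the vacuoles in which intracellular pathogens live and helps to break them, and a regulatory group, which sits on the cell's own membranes and holds the effectors inactive there. Irgm1, Irgm2 and Igtp (also called Irgm3) are the regulatory members, called GMS proteins for an altered motif in their GTP-binding site. Iigp1 (Irga6), Ifi47 (Irgd), Tgtp1 and Tgtp2 (both Irgb6) are effectors with the usual motif (GKS). They work together with the guanylate-binding proteins (GBPs), and their targeting depends on part of the autophagy conjugation machinery.

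All 7 IRG genes fell in Fat. On the deposited CPM (reads scaled to the size of the library), their mean level in Fat was between 1.96-fold (Irgm2) and 4.51-fold (Tgtp1) lower than in Con, with n = 2 libraries per medium. In bulk RNA, fewer cells of a type and less RNA per cell cannot be told apart. By limma on log2(CPM + 0.1) with Benjamini-Hochberg adjustment, 7 of 7 were called lower at an adjusted p under 0.05, and 5.0% of the 12470 genes tested were called lower. The median log2 fold change (Fat minus Con) was -1.39 over the 7 genes and 0.01 over all genes tested. For each of the 7 genes both Fat libraries lay below both Con libraries, as they did for 26.2% of the genes tested. In limma the calls rest on its mean-variance trend, which lets genes of like abundance share their spread. Without it the limma adjusted p of the 7 genes was between 0.0831 and 0.135, none was called, and 0.0962% of genes were called lower. On the recovered reads, edgeR (quasi-likelihood and exact tests) and DESeq2 called all 7 lower, and 5.20%, 7.44% and 4.77% of all genes.

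Of the regulatory members, Irgm1, whose loss is known to leave mice open to mycobacteria, had the highest level per length (TPM) of the family. Its level in Con was 353 CPM in replicate 1 and 337 in replicate 2, and in Fat it was 183 and 108 CPM. The Fat libraries did not overlap the Con libraries but lay far apart from each other. Means were 345.0 ± 11.6 CPM in Con and 145.6 ± 53.0 CPM in Fat (SD, n = 2), a log2 fold change of -1.29 (SE 0.20, 95% interval -1.77 to -0.82, limma adjusted p = 0.0122). Irgm2, a regulator known from Golgi membranes, had 147 and 128 CPM in Con and 83.4 and 56.8 CPM in Fat. It changed least of the 7, with a log2 fold change of -0.99 (SE 0.16, interval -1.37 to -0.62, limma adjusted p = 0.0135). Igtp, a regulator known from the endoplasmic reticulum and lipid droplets, had 129.8 and 117 CPM in Con and 57.8 and 38.3 CPM in Fat. Its log2 fold change was -1.39 (SE 0.17, interval -1.78 to -0.996, limma adjusted p = 0.00514).

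Iigp1, an effector that loads onto the vacuole of Toxoplasma, had the smallest adjusted p of the family. It stood at 189 and 167 CPM in Con and at 57.5 and 33.6 CPM in Fat. Means were 178.1 ± 16.0 and 45.5 ± 16.9 CPM (SD, n = 2), and the log2 fold change was -2.01 (SE 0.21, interval -2.51 to -1.52, limma adjusted p = 0.00379). Among the 5790 genes with a lower mean in Fat it ranked 27 by p. Ifi47, another vacuole-coating effector, had 229.7 and 197 CPM in Con and 105 and 62.7 CPM in Fat. The groups were again separate, with a log2 fold change of -1.39 (SE 0.21, interval -1.88 to -0.91, limma adjusted p = 0.00968).

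Tgtp2, the better expressed of the near-identical Irgb6 genes, had 43.8 and 39.2 CPM in Con and 18.004 and 10.9 CPM in Fat. Its log2 fold change was -1.56 (SE 0.20, interval -2.04 to -1.08, limma adjusted p = 0.00642). Tgtp1 was the lowest member, per length too, with 91 and 81 reads in Con and 31 and 10 reads in Fat, or 2.68, 2.16, 0.831 and 0.244 CPM. Its log2 fold change of -2.15 had the widest interval of the 7 (SE 0.44, interval -3.17 to -1.12, limma adjusted p = 0.0260). This was the only member that lost its call when a library was left out, with a limma adjusted p of 0.0678 without Con replicate 1. Its log2 fold change was -1.43 without Fat replicate 2, and -1.18 with a pseudocount of 1 CPM in place of 0.1.

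**Figure D1:**
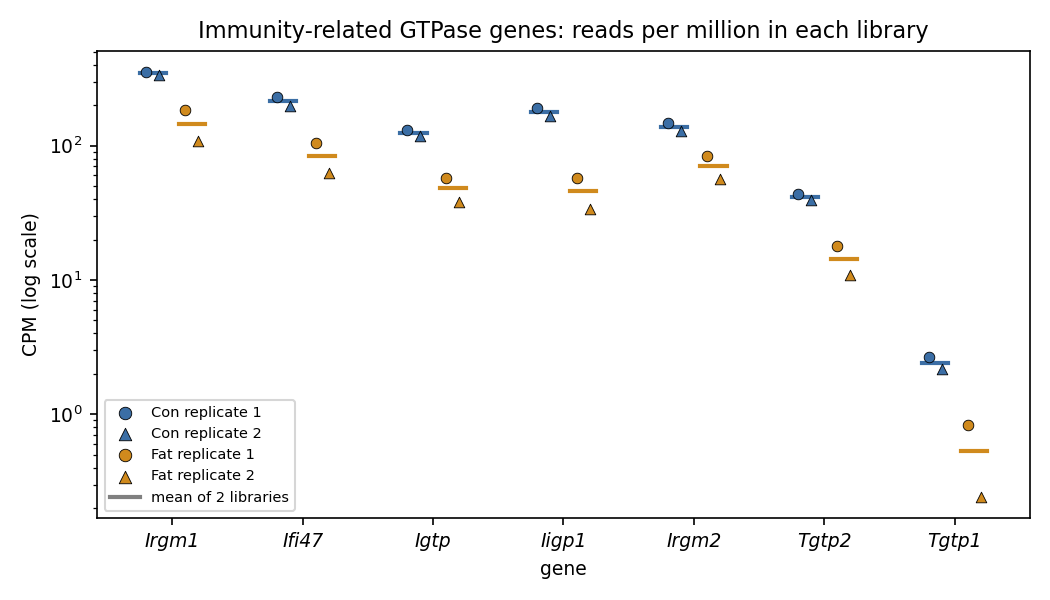
CPM of the 7 IRG genes (log axis) in each library, with circles for replicate 1 and triangles for replicate 2 of each medium and bars for the mean of 2 libraries. For every gene both Fat points lie below both Con points, and Fat replicate 2 lies below Fat replicate 1.

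**Figure D2:**
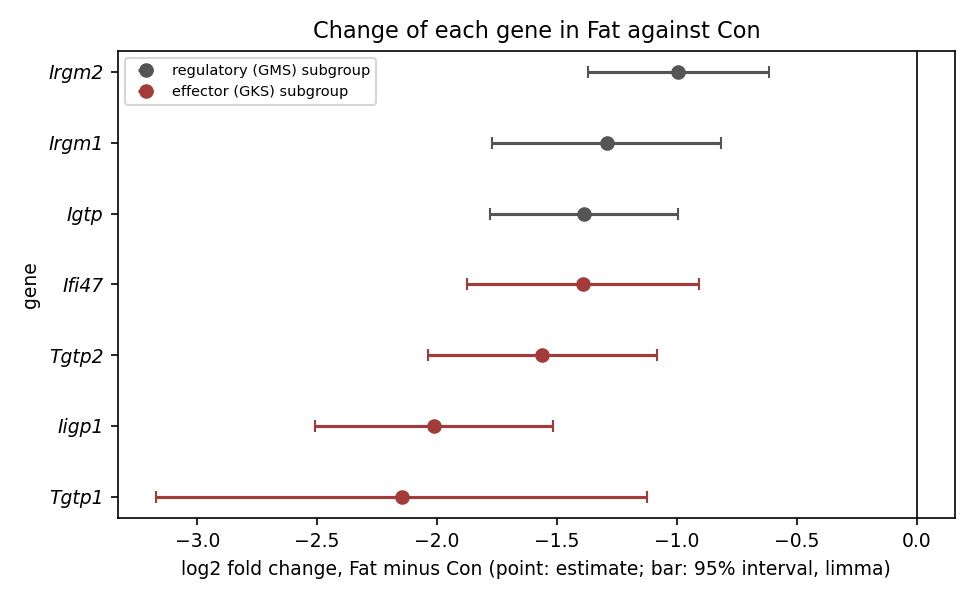
Log2 fold change (Fat minus Con) of each IRG gene from limma, with 95% intervals, coloured by regulatory or effector subgroup. The estimates run from -0.99 for Irgm2 to -2.15 for Tgtp1, and the interval of Tgtp1 is the widest.

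The 2 Fat libraries differed in every IRG gene in the same direction, with replicate 1 the higher, while 49.3% of all genes tested were higher in replicate 1. Fat replicate 1 was above Fat replicate 2 by 0.55 to 1.44 on the log2(CPM + 0.1) scale, with a median of 0.74, and 1.48% of all genes tested had a difference at least as high as the smallest of these. Over all genes tested the median size of the difference between the Fat libraries was 0.0884. Con replicate 1 was also above Con replicate 2 in all 7 genes, by 0.07 to 0.30. Without Fat replicate 2, the log2 fold changes of the 7 genes were between -1.63 (Iigp1) and -0.72 (Irgm2), and all 7 were still called by limma, as were 2.51% of all genes in that direction.

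Sequence shared between paralogs limits how far reads of 75 bases can be assigned to 1 member. Every stretch of 75 bases in the reference transcripts of a member (GENCODE vM21) was looked up in the transcripts of all other genes. Irgm1 shared 0 of its 5807 stretches and Iigp1 0 of 5936. Irgm2 shared 4.78%, almost all with Igtp, and Igtp shared 7.8%, all with Irgm2. Ifi47 shared 1.55%, all with Olfr56, an odorant receptor gene that lies near it. The values of these 5 genes therefore rest mostly on stretches of their own.

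Tgtp1 and Tgtp2 could not be separated in the same way. Of the stretches of Tgtp1, 77.2% were found in another gene, mainly Tgtp2, and 81.4% of those of Tgtp2 were found in Tgtp1. Their longest transcripts were 99.3% identical. The split of reads between them depends on how the authors treated reads with several matches, which is not given in the sources used here. Summed as 1 gene, they had 46.5 and 41.3 CPM in Con and 18.8 and 11.1 CPM in Fat, and a log2 fold change of -1.59 (limma adjusted p = 0.00703). The share of the summed reads given to Tgtp1 was 5.77% and 5.22% in Con and 4.41% and 2.20% in Fat, so the sum follows Tgtp2.

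Levels were compared between genes on the deposited TPM, which is scaled for gene length. The 7 genes together had 997 and 883 TPM in Con and 469 and 287 TPM in Fat. In Con the order was Irgm1 (347 and 325 TPM), Ifi47 (249.6 and 210.1 TPM), Igtp (140.4 and 124 TPM), Iigp1 (133 and 115 TPM), Irgm2 (91.5 and 78.0 TPM), Tgtp2 (34.0 and 29.9 TPM) and Tgtp1 (2.09 and 1.65 TPM). Of these neighbours, Igtp and Iigp1 did not differ beyond the spread of their libraries. In Fat the order was the same except that Irgm2 (52.6 and 35.8 TPM) stood above Iigp1 (40.8 and 23.8 TPM). Irgm1 (182 and 107 TPM) overlapped Ifi47 (115 and 68.9 TPM), Igtp (63.4 and 41.9 TPM) overlapped Irgm2, and Irgm2 overlapped Iigp1.

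Within each library, however, Iigp1 stood above Irgm2 in both Con libraries and below it in both Fat libraries. This pair was chosen after its values were seen. The log2 ratio of Irgm2 to Iigp1 was -0.37 and -0.38 in Con and 0.54 and 0.75 in Fat, a difference of 1.02 (exact two-sided permutation p = 0.333, the smallest that 2 libraries against 2 can give). A ratio within a library does not depend on library scaling. Among ratios of any 2 tested genes, 55.9% had separate Fat and Con libraries, so the values of this pair are given as a description.

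**Figure D3:**
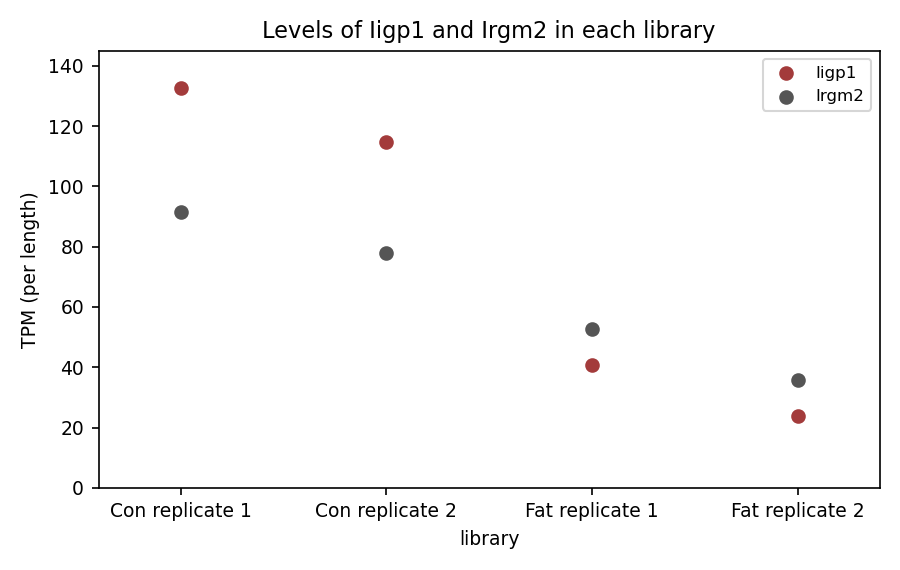
TPM of Iigp1 and Irgm2 in each of the 4 libraries. Iigp1 is the higher of the pair in both Con libraries (133 and 115 against 91.5 and 78.0 TPM) and the lower in both Fat libraries (40.8 and 23.8 against 52.6 and 35.8 TPM).

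Effectors had the lower fold changes. The median log2 fold change was -1.79 over the 4 effectors, with a range of -2.15 to -1.39, and -1.29 over the 3 regulatory members, with a range of -1.39 to -0.99. In each of the 12 pairs of an effector with a regulatory member the effector fell more, by 0.0045 (Ifi47 against Igtp) to 1.15 (Tgtp1 against Irgm2) on the log2 scale, and in 11 of 12 pairs the Fat ratios lay outside the Con ratios. Over all 21 pairs of members, within and between the subgroups, the ratios were separate in 18. Among ratios of any 2 tested genes, 55.9% had separate Fat and Con libraries, and pairs that share a gene are not independent. Tgtp1 and Tgtp2 enter the pairs and the effector median separately, although most of their stretches are shared and Tgtp1 had few reads. With both left out, the effector fell more in 6 of 6 pairs. With a pseudocount of 1 CPM the effector fell more in 10 of 12, since Tgtp1 then fell less than Irgm1 and Igtp, and in 11 of 12 (without Ifi47 against Igtp) by edgeR without a block, by DESeq2, or without Con replicate 1 or Fat replicate 2. The exact test of a pair cannot go below 0.333 with 2 libraries per medium, so it says nothing about whether the subgroups differ, and the values are given as a description.

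The promoters of most members hold the letters of interferon-responsive elements. Promoter windows of 300 bases (250 before and 50 after the start) from RefSeq (GRCm38.p6) were searched on both strands for a pair of GAAA with 2 bases between them, the core of the interferon-stimulated response element (ISRE), and TTCNNNGAA, the core of the gamma-activated site (GAS). Entries of 6 of the 7 members were searched. Iigp1 was left out of the search, so whether its promoter holds either motif was not tested. The ISRE core was found in 5 of the 6, and in 3.44% of all 32851 windows. In 4 members (Irgm2, Igtp, Tgtp1 and Tgtp2) TTCNNNGAA lay just before it, with 2 bases between them. That order, within 20 bases, was found in 0.07% of all windows, or 23 of them, of which these 4 members and the neighbouring gene Gm12185 are part. Gm12250, next to Igtp, also met this rule, on the opposite strand and at the limit of 20 bases. These windows are not independent, since some are alike beyond the motifs. The 250 bases before the start were 92.5% identical in Tgtp2 and Gm12185 and 68.1% in Irgm2 and Igtp. Tgtp1 was 61.5% identical to Tgtp2 and to Gm12185. The other pairs among Irgm2, Igtp, Tgtp1, Tgtp2 and Gm12185 were 45.2% to 51.5% identical. The segments are shown because the arrangement is shared by genes of both subgroups. Capitals mark the motifs, the GAS core first and the ISRE core second.
Irgm2: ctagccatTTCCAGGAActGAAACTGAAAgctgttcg
Igtp: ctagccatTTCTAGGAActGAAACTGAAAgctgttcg
Tgtp1: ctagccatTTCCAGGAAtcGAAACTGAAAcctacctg
Tgtp2: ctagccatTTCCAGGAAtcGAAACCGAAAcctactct
Gm12185: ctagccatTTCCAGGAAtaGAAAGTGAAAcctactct

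These segments lie at chr11:58214894-58214930 on the plus strand (Irgm2), chr11:58199503-58199539 on the plus strand (Igtp), chr11:48992306-48992342 on the minus strand (Tgtp1), chr11:49064265-49064301 on the minus strand (Tgtp2) and chr11:48927240-48927276 on the minus strand (Gm12185), all upstream of the annotated start in GRCm38.p6. The ISRE core of the members began 64 (Irgm2), 34 (Igtp), 77 (Tgtp1) and 70 (Tgtp2) bases before the start. Irgm1 differed from these, with a pair of overlapping ISRE cores and no match to TTCNNNGAA. Its segment lies at chr11:48871427-48871458 on the minus strand, and the capitals mark both ISRE cores.
Irgm1: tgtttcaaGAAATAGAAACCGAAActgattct

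Ifi47 had neither motif in its window. Its 250 bases before the start, at chr11:49076337-49076586 on the plus strand, are shown with those of Irgm2, at chr11:58214727-58214976, so that a member without a match can be set beside one with both.
Ifi47: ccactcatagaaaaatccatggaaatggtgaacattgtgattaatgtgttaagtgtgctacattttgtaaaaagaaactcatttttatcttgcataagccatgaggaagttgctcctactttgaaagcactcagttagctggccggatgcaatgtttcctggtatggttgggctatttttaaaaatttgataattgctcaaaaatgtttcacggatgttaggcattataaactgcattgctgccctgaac
Irgm2: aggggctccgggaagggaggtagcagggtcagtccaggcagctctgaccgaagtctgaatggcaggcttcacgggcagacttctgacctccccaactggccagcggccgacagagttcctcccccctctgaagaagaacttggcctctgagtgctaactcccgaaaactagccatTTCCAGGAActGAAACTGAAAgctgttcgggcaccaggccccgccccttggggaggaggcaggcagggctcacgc

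The absence of a match says only that these letters are not in this window. Ifi47, without a match, had a log2 fold change of -1.39, and Igtp, with both motifs, had the same rounded value of -1.39.

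Genes of IRG type beyond the 7 members fell as well, but not throughout. Of 16 names on this list, 10 were listed in the deposited values and the other 6 are RefSeq synonyms of listed genes. Of 9 tested, 5 were called lower by limma, against 5.0% of all genes tested, and the median log2 fold change was -1.02. Gm12250, which encodes Irgb10, an effector that acts on bacterial membranes, had 85.2 and 73.4 CPM in Con and 37.1 and 21.5 CPM in Fat (log2 fold change -1.48, limma adjusted p = 0.00941). Gm4951 had 54.3 and 40.5 CPM in Con and 21.8 and 9.93 CPM in Fat, with a log2 fold change of -1.67 (limma adjusted p = 0.0216), but was not called by DESeq2 (adjusted p = 0.0682) or on TPM. Gm12185, Gm5431 and Gm4841 were also called, at -1.19, -0.92 and -2.38. Gm5431 was not called on TPM (limma adjusted p = 0.0518), where 3 of the 9 genes and 2.94% of all genes were called lower, and Gm4841 was not called without Con replicate 1 (limma adjusted p = 0.0549). Gm4841 held 31 reads in each Con library and 5 and 2 reads in the Fat libraries. It passed the filter through its Con libraries alone, so the filter largely fixed its direction in advance. Without the filter limma called 5 of 10 genes of the list lower, and 3.13% of all genes. Of the 9 tested with the filter, the 4 not called were F830016B08Rik (-1.02, limma adjusted p = 0.126), 9930111J21Rik1 (-0.43, limma adjusted p = 0.123), Irgc1 (-0.13) and Irgq (-0.02).

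The members lie in 3 groups of neighbouring genes, by their order in RefSeq (GRCm38.p6). On chromosome 11, the genes from Irgm1 to Ifi47 include Gm5431, Gm12185, Tgtp1 and Tgtp2, and a second group holds Gm12250, Igtp and Irgm2. Iigp1 lies on chromosome 18 with Gm4951, Gm4841 and F830016B08Rik. Of the 16 tested genes of other kinds within these groups or among the 5 genes on each side, 1 was called, Olfr56, where 9.0% of all genes tested were called in either direction, and these genes were chosen after values were seen. Olfr56 had 4.16 and 4.05 CPM in Con and 2.20 and 2.17 CPM in Fat (log2 fold change -0.88, limma adjusted p = 0.0137, but 0.0516 without Con replicate 1), and shared 0.814% of its stretches with Ifi47. Unlike those of Ifi47, its Fat libraries were nearly equal. The 15 others had log2 fold changes of -0.59 to 0.57 and limma adjusted p of 0.0877 or more.

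The guanylate-binding proteins, the large GTPases that act with the IRGs at pathogen vacuoles, were lower in Fat. Of 12 listed, 11 were tested and 11 were called lower by limma, against 5.0% of all genes tested. Their median log2 fold change was -1.92. DESeq2 called 7 of the 11 and limma on TPM called 8, where 4.77% and 2.94% of all genes were called lower. Without Con replicate 1 the median log2 fold change of the 11 was -1.80. Gbp3 had 225 and 191 CPM in Con and 73.3 and 41.0 CPM in Fat, a log2 fold change of -1.92 (limma adjusted p = 0.0051). Gbp7, which is known to bring autophagy proteins to vacuoles, had 179 and 151 CPM in Con and 72.4 and 44.3 CPM in Fat, a log2 fold change of -1.54 (limma adjusted p = 0.00639). Gbp2, Gbp5, Gbp4 and Gbp6 had -2.26, -2.15, -2.12 and -1.81. As in the IRGs, Fat replicate 2 was the lower of the Fat libraries in each of these 6.

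Along the interferon-γ pathway, the transcription factors Irf1 and Irf8 and the inhibitors Socs1 and Socs3 were called lower and the receptor subunits were not. Of 12 genes on the list, 11 were tested and 6 were called lower by limma, against 5.0% of all genes tested. Their median log2 fold change, over the 11, was -0.48. Without Con replicate 1, 3 of the 11 were called lower, and 2.68% of all genes. Irf1, a transcription factor induced by interferon-γ that binds the ISRE, had 367 and 362 CPM in Con and 224 and 180.0 CPM in Fat (log2 fold change -0.86, limma adjusted p = 0.0045). Socs1, an inhibitor of Jak kinases, had 4.33 and 3.81 CPM in Con and 2.22 and 1.71 CPM in Fat (-1.02, limma adjusted p = 0.0170, but 0.0635 without Con replicate 1). Ciita, the activator of MHC class II genes, Irf8 and Socs3 had -1.11, -0.48 and -0.60, and Jak2 had -0.29 with a limma adjusted p of 0.0476. On TPM or without Con replicate 1 or Fat replicate 2 neither Socs3 (limma adjusted p of 0.0623 to 0.0942) nor Jak2 (0.129 to 0.222) was called, and Jak2 was not called without the filter (0.0592) or with a mean of at least 5 CPM (0.0540). The receptor subunit Ifngr1 had 169 and 164 CPM in Con and 165 and 182 CPM in Fat (0.06, limma adjusted p = 0.631), and Ifngr2 had -0.18 (limma adjusted p = 0.0965).

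The ligand itself was near the limit of detection. Ifng held 13 and 17 reads in Con and 4 and 4 reads in Fat and was below the filter. Without the filter its log2 fold change was -1.35 (SE 0.27, limma adjusted p = 0.0322), from these few reads. Ifnb1, the gene of interferon-β, held 1 read in each Con library and 0 in each Fat library, where 3 reads correspond to 0.0804 and 0.0732 CPM. Reads of these ligands do not measure interferon protein in the medium.

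Genes of the type I interferon arm mostly did not pass the test. Of 8 tested, 1 was called lower by limma, against 5.0% of all genes tested. The median log2 fold change was -0.20, and 4 were lower at an unadjusted p under 0.05, as were 12.4% of all genes tested. Limma called 3 of the 8 without Con replicate 2 and 4 without Fat replicate 1, where 4.91% and 4.68% of all genes were called lower. Usp18, which removes the ubiquitin-like protein ISG15 and damps interferon receptor signalling, had 16.5 and 11.6 CPM in Con and 6.19 and 2.78 CPM in Fat (-1.71, limma adjusted p = 0.0237), but was not called by DESeq2 (adjusted p = 0.0663) or on TPM (limma adjusted p = 0.0528). Irf7, a factor that amplifies type I interferon, had 112 and 72.7 CPM in Con and 60.0 and 24.6 CPM in Fat (-1.23, limma adjusted p = 0.0918). It was called by edgeR's exact test (adjusted p = 0.0243), and by limma without Con replicate 2 (adjusted p = 0.0313) or without Fat replicate 1 (adjusted p = 0.000608). Tyk2 had -0.17 (limma adjusted p = 0.115), Stat2 had -0.54 (limma adjusted p = 0.133), and the receptor subunits Ifnar1 and Ifnar2 had -0.04 and -0.07. The difference between the interferon-γ and type I lists was not tested.

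The autophagy and ubiquitin genes set beside the IRGs, called conjugation partners here, had a median log2 fold change of -0.01 over 16 genes tested. Limma called 2 of them lower, against 5.0% of all genes tested. Trim21, a ubiquitin ligase and antibody receptor that is itself induced by interferon, had 39.5 and 38.6 CPM in Con and 27.1 and 23.0 CPM in Fat (-0.64, limma adjusted p = 0.0076). Rabgap1l had -0.35 (limma adjusted p = 0.0243) and lost its call on TPM and without Con replicate 1, Fat replicate 1 or Fat replicate 2 (limma adjusted p of 0.0578 to 0.129). Limma called 1 of the 16 in each of these fits. The other 14, among them Atg3, Atg5, Atg7, Atg12, Atg16l1 and the Gabarap genes, had log2 fold changes of -0.14 to 0.17 and limma adjusted p of 0.120 to 0.982.

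**Figure D4:**
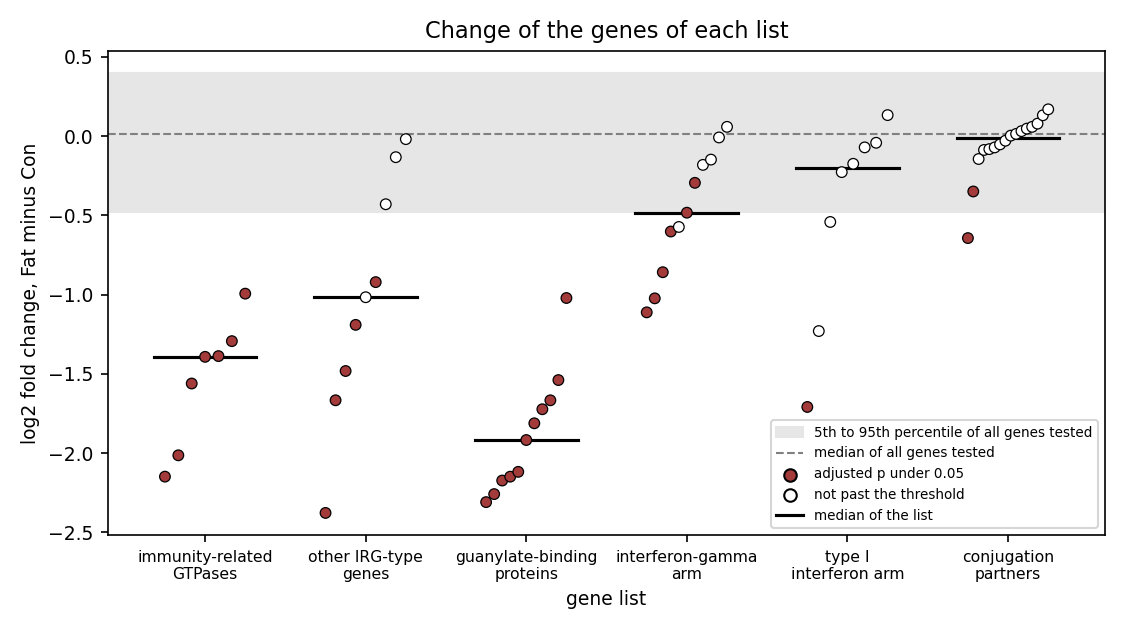
Log2 fold change (Fat minus Con) of each tested gene in 6 lists, with filled points for genes called by limma, bars for list medians and a grey band from the 5th to the 95th percentile of all genes tested. The IRG and GBP genes all lie below the band, and the 14 conjugation partners that were not called lie within it.

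The genes whose profile over the 4 libraries was most like the mean IRG profile were Gm12250, Gbp7, Ccl2, Tnfsf10 and Tbx21. Likeness was the root mean square distance between centred log2(CPM + 0.1) values, which was 0.0323, 0.0385, 0.0644, 0.0851 and 0.0972 for these genes in turn. Ccl2, a chemokine that draws monocytes, had 93.4 and 75.5 CPM in Con and 39.4 and 20.6 CPM in Fat. Tnfsf10, the death ligand TRAIL, had 4.75 and 4.13 CPM in Con and 1.74 and 1.15 CPM in Fat. Tbx21, the factor T-bet of interferon-γ-producing lymphocytes, was at 0.560 and 0.533 CPM in Con and 0.161 and 0.0488 CPM in Fat. It passed the filter through its Con libraries alone, so the filter largely fixed its direction in advance. Of the members, Tgtp2 was nearest to the family mean (0.0285) and Tgtp1 farthest from it (0.381).

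Markers of cell types were read in the same libraries, where limma called 5.0% of all genes tested lower and 3.99% higher. All 8 macrophage markers were present, Adgre1 under its older symbol Emr1, at 1216 and 1141 CPM in Con and 1064 and 1000.4 CPM in Fat. The other 7 summed to 34746 and 32779 CPM in Con and 27440 and 25918 CPM in Fat, most of it Lyz2 (-0.41, limma adjusted p = 0.209). Without Lyz2 the remaining 6 summed to 6026 and 5959.9 CPM in Con and 5924 and 5571 CPM in Fat. Of these 7, 2 were called lower, Fcgr1 (-0.88, limma adjusted p = 0.0123), the high-affinity IgG receptor, which interferon-γ induces, and Mertk (-0.31, limma adjusted p = 0.0289), which was not called on TPM or without Con replicate 1 or Fat replicate 2 (limma adjusted p of 0.0776 to 0.145). Markers of T and NK cells, which make interferon-γ, summed to 9.91 and 7.78 CPM in Con and 5.89 and 4.83 CPM in Fat. Limma called 0 of 6 tested, with 3 lower at an unadjusted p under 0.05, as were 12.4% of all genes tested. DESeq2 and edgeR's quasi-likelihood test called 0. The exact test of edgeR called 3 lower, and 7.44% of all genes. Adipocyte markers summed to 6 and 8 reads in Con and 211 and 138 reads in Fat, and Adipoq, Lep and Pck1 were at 0 in both Con libraries. Of the adipocyte markers, only Plin4 and Cidec were tested, and both passed the filter through their Fat libraries alone. Limma called both higher, a result that the filter largely fixed in advance. Without the filter limma called 5 of the 8 higher, and 2.48% of all genes. B cell markers summed to between 17.98 and 23.5 CPM, neutrophil markers to between 315 and 369, fibroblast markers to between 506 and 648 (1 of 4, Dcn, was called lower, at -0.82), endothelial markers to between 0.973 and 1.18, and dendritic cell markers to between 1.93 and 2.48. The part of these markers in the change of the IRG genes was not tested.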

How the data were processed

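Poly(A) RNA libraries were read from 1 end over 75 bases, for 2 Con and 2 Fat libraries, grouped by the medium named in their labels. The authors deposited 17013 genes as CPM, scaled to the size of each library, and as TPM, for which gene length is also taken into account. The submitters' processing notes name the genome build GRCm39. The aligner, the counter and the treatment of reads with several matches are not given in the sources used here. Reference sequences were of GRCm38.p6 and GENCODE vM21, so no gene coordinates of the authors' build are given.

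Whole reads were recovered from the CPM values (100% of values within 0.001 read). Library totals were 33573852 and 37881292 reads in Con and 37534565 and 40785872 in Fat. limma 3.58.1 in R 4.3.3 was fitted with its mean-variance trend to log2(CPM + 0.1). Of the genes, 12470 passed a filter of 0.5 CPM or more in 2 libraries or more and were tested, with Benjamini-Hochberg adjustment over all of them and calls at 0.05. A fold change on this scale understates the change of low genes. Alternatives were another pseudocount, no filter or a stricter one, TPM, median-ratio scaling, a replicate block, no trend, edgeR 4.0.16 and DESeq2 1.42.0 on the recovered reads, Tgtp1 and Tgtp2 summed, an unadjusted threshold, and each library left out. The fits were tested on simulated data.

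The members and gene lists were chosen with earlier results of these data known. 1 gene of the interferon-γ list is not reported here. Named are the members, up to 6 genes per list by adjusted p, any gene called against its list's direction and the 5 genes most like the family mean. Ligands, receptors, neighbouring genes and other genes named beyond this were chosen after their values were seen.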

Additional observations from a re-analysis of the deposited data

How the results depend on the processing

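The 7 IRG genes were lower in Fat under every alternative in which each was tested. Of the 7 called, the count stayed within 1.5 times under all alternatives except the fit without a mean-variance trend, which called 0 by limma. With the trend all 7 had an unadjusted p under 0.05, and edgeR and DESeq2 each called all 7. Without the trend none of the other IRG-type, GBP, interferon or conjugation genes was called by limma either. A mean of at least 5 CPM removed Tgtp1 before the test. On TPM the limma adjusted p of the 7 was 0.0155 to 0.0497. Of all genes, 1122 were called, against 31 without the trend, 3008 at an unadjusted p under 0.05, 1640 with edgeR's exact test, and 529 to 1131 with a library left out, lowest without Fat replicate 2 and then without Con replicate 1 (666). The cause was not tested, except that leaving out a library leaves fewer samples. Ifngr1 changed sign without Fat replicate 2, to -0.015, and was 0.13 without Fat replicate 1. Tgtp1, at 10 to 91 reads, limits what depth can show for single members.

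The labels number the replicates in both media but do not say what a number shares. Over all genes tested, the deviations of Con replicate 1 and Fat replicate 1 from their group means had a correlation of 0.2. With 2 libraries per medium the replicate 2 pair gives the same value and adds nothing. With the replicate block limma called 2520 genes, and edgeR's quasi-likelihood test with the block 2776. All 7 IRG genes were called with the block, against 9.96% of genes called lower, and 5 of 8 genes of the type I interferon arm were called lower in place of 1. The block also called 8 of 11 genes of the interferon-γ list in place of 6, with Ifngr2 among them (limma adjusted p = 0.0206), 7 of 9 other IRG-type genes in place of 5, and 3 of 6 T and NK cell markers in place of 0.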
